A study of Rattus norvegicus with 8 samples.

Results

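Myostatin, its inhibitor follistatin, its receptor Acvr2b, the myogenic regulatory factors, the satellite cell factor Pax7 and the MEF2 factors were examined in extraocular muscles, which rotate the eyeball. The group was defined by gene symbol as Mstn, Fst, Acvr2b, Myod1, Myog, Myf5, Myf6, Pax7, Mef2c and Mef2a, and every probe set that the array annotation gives to one of these symbols alone was taken. A probe set is the set of array probes that reads 1 transcript. Of the 10 genes, 8 had a probe set, with 13 probe sets in all among the 31042 that were not manufacturer controls. Myf5 and Pax7 have no annotated probe set and were not analysed here. The signal was measured on 8 Affymetrix arrays, 1 per rat, from total RNA of muscles of adult Sprague-Dawley rats with an initial body weight of 200 ± 40 g. The hyperthyroid group (n = 4) received triiodothyronine (T3), the thyroid hormone that binds the nuclear receptors, at 25 µg for each 100 g of rat, into the abdomen every 2 days for 6 weeks, and was killed 24 hours after the last dose. The control group (n = 4) was untreated, so an injection without hormone is not part of the comparison. Each array carries a replicate number, which gives arrays 1, 2, 3 and 5 for hyperthyroid and arrays 7, 8, 9 and 11 for control muscles.

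Myostatin is a secreted ligand of the transforming growth factor beta family that restrains muscle mass. Its precursor is cut by furin-type proteases, and the mature ligand signals through the activin receptor Acvr2b and the transcription factors Smad2 and Smad3. Follistatin binds the ligand and blocks it. The myogenic regulatory factors Myod1, Myf5, Myog and Myf6 bind the E-box motif as dimers with E proteins and switch on muscle genes, and MEF2 proteins act beside them. Pax7 marks satellite cells, the stem cells of muscle, which in extraocular muscles of several mammals are known to remain active in the adult.

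The E-box (CANNTG, the same on both strands) and the MEF2 consensus motif (A and T rich, also the same on both strands) are the sites through which these factors act on muscle genes and on each other. The 250 bases before the start of 3 of the measured genes are shown because each holds at least 1 of these motifs, which are in capitals. Sequences and starts are those of RefSeq on the build GRCr8, whose promoter table held 6 of the 10 genes.
Myog, GRCr8 chr13:48297226-48297475, plus strand: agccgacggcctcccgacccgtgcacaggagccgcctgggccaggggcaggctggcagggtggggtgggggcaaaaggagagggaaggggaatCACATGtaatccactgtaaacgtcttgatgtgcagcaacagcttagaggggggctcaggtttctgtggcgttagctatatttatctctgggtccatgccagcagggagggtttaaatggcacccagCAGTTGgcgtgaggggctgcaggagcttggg
Myf6, GRCr8 chr7:44701314-44701563, minus strand: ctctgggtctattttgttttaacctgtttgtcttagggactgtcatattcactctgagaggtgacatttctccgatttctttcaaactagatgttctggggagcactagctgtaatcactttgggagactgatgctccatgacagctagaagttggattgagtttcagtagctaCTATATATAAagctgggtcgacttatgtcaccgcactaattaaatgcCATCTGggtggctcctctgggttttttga
Mef2a, GRCr8 chr1:130392163-130392412, minus strand: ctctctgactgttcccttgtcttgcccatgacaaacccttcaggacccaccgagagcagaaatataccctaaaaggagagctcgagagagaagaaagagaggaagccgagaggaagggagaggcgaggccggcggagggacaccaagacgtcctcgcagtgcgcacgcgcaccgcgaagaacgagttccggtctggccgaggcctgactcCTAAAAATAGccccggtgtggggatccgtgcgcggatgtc
Myog had 2 E-boxes, which begin 157 and 31 bases before the start, and no full match to the MEF2 consensus. Its stretch ctatatttat differs from the consensus as searched in the last letter only. Myf6 had 1 E-box at 29 bases and 1 MEF2 match at 76 bases, and the MEF2 match includes the TATA-like run TATATA. Mef2a had 1 MEF2 match at 40 bases and no E-box. The E-box was found in 65.5% of all 33469 promoters of this length and the MEF2 consensus in 2.96%. The hexamer AGGTCA, which thyroid hormone receptors bind, searched on both strands, was in 14.1% of promoters and in 0 of these 3. These are matches of letters and say nothing of binding.

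**Figure D1:**
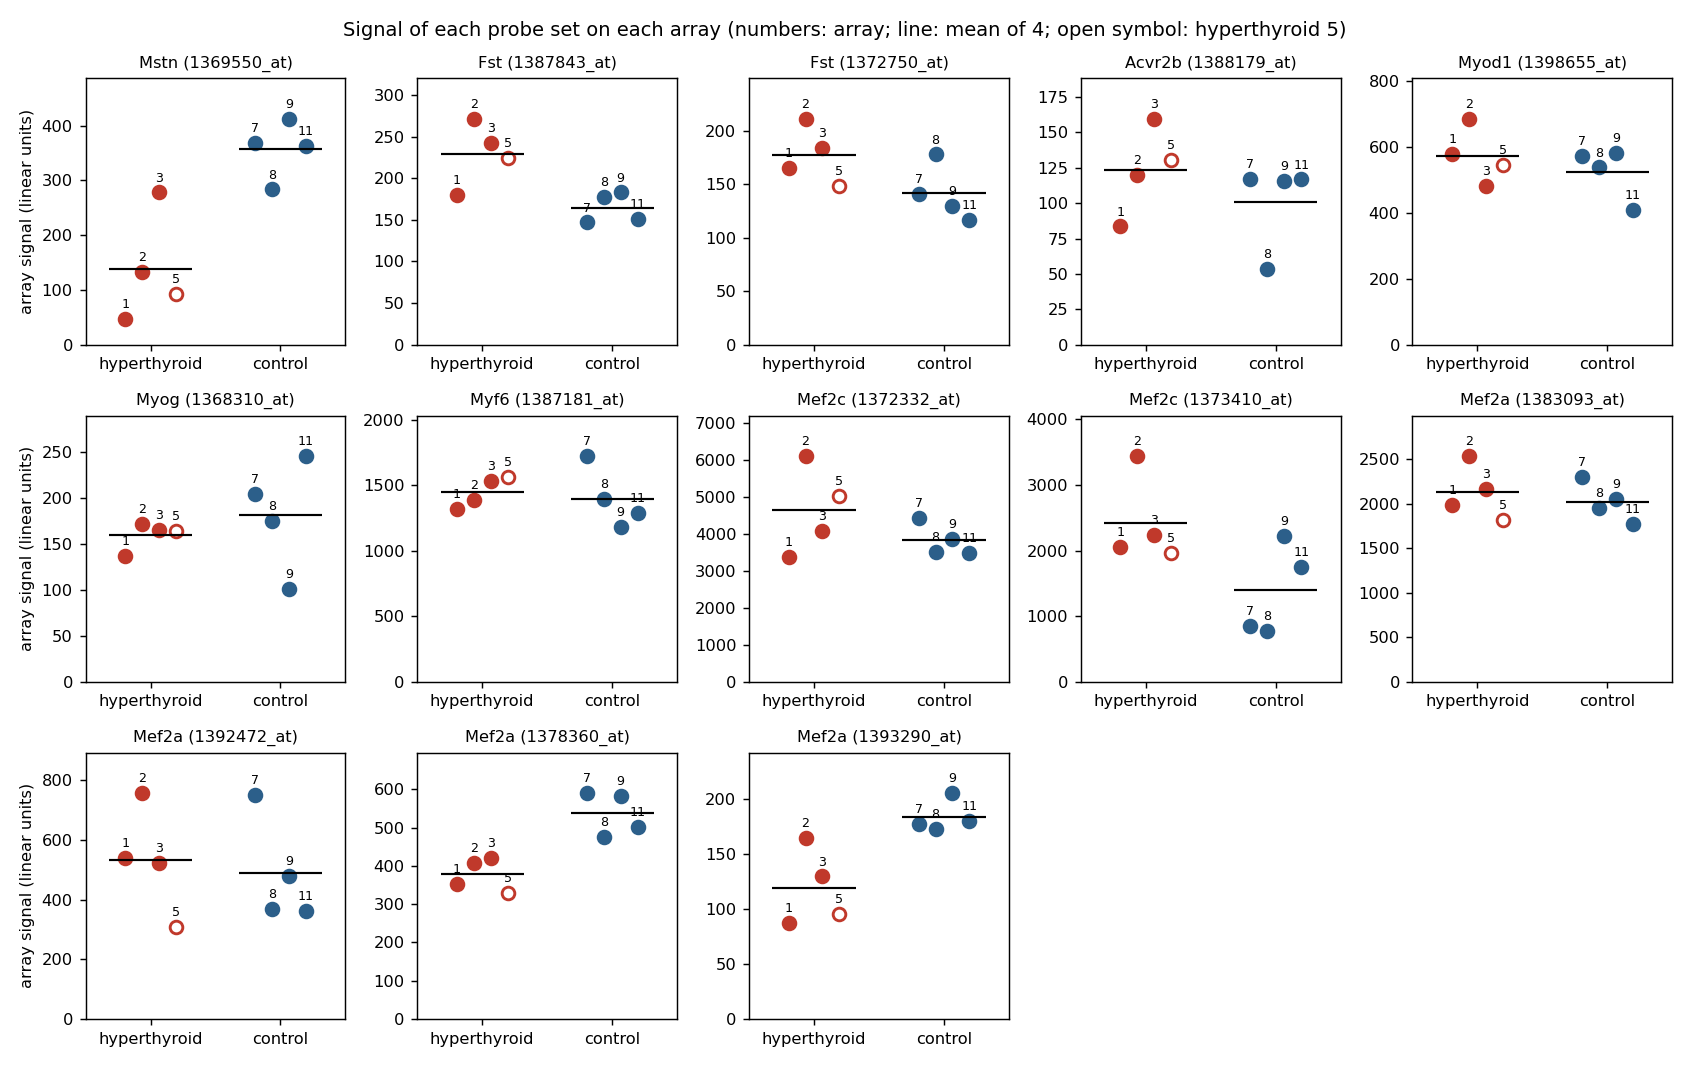
Array signal (linear, each axis from 0) of the 13 probe sets, with hyperthyroid arrays in red on the left, control arrays in blue on the right and the mean of each group as a line. The open red symbol is hyperthyroid 5. Mstn and the Mef2a probe sets 1378360_at and 1393290_at have no overlap between the groups.

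The arrays did not all match their tissue label equally. Hyperthyroid 5 had a Myh13 signal (the extraocular myosin heavy chain) of 4.17, against 5430 to 9340 on the other 7, and signals of 399 for Hoxa10 and 345 for Hoxa9, homeobox genes of the trunk and limbs, against at most 27.8 and 36.3 elsewhere. The muscle genes Ckm and Acta1 had signals of at least 18812 on every array. It also had the brightest Myh7 (slow myosin), at 13031 against 1795 to 4097 elsewhere. It is called here by its label, and the counts for the members and lists are given with and without it. Hyperthyroid 2 was low in oligodendrocyte transcripts (Mbp 997 against 4768 to 10668 on controls). The nerve markers Prx and Pmp22, at 335 and 5667, were not below controls (249 to 320 and 5590 to 11007). Sox10, at 69.4, was below them (82.0 to 143). The Gapdh signal ratio of the 3 prime to the 5 prime control probe set grows as RNA is degraded. It stood at 3.91, 4.40, 2.18 and 1.44 on hyperthyroid 1, 2, 3 and 5, against 1.67 to 1.97 on controls (exact permutation p = 0.229, two-sided, where 0.0286 is the smallest possible). Xist, the RNA of the inactive X chromosome, was bright on 1 array of each group, with 367 on hyperthyroid 1, 351 on control 11 and at most 44.5 elsewhere. Eif2s3y, a gene of the Y chromosome, was at 6.32 on hyperthyroid 1, 16.2 on control 11 and 533 to 927 elsewhere. By these genes hyperthyroid 1 and control 11 read as female and the other arrays as male. The labels number the replicates and say no more of them. The p-values set each group difference against the spread between these samples.

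Of the 13 probe sets, 0 passed the test between hyperthyroid and control muscles, and the lowest values relative to controls were those of Mstn. The test was limma on log2 signal, with Benjamini-Hochberg adjustment over all 18625 probe sets in the upper 60% by mean signal, and all 13 passed that filter. Adjusted p ran from 0.265 to 0.900 on all 8 arrays, where 0% of all probe sets passed 0.05, and from 0.152 to 0.949 without hyperthyroid 5, where 0.156% passed. At an unadjusted p under 0.05 limma counted 5 of the 13, 2 higher and 3 lower, on all 8 arrays and again without hyperthyroid 5. Over all probe sets 11.5% reached that level, 6.25% higher and 5.3% lower, and without hyperthyroid 5 15.2%, 7.59% and 7.66%. With median centring the members counted were 1 higher and 3 lower, and the share of all probe sets under it was not analysed here. The 2 higher became 0 without hyperthyroid 2 or without control 7, and 1 without hyperthyroid 3, control 8 or control 11. When hyperthyroid 5 was out as well, they became 0 without hyperthyroid 2 and 1 without hyperthyroid 3 or control 11. The 5 probe sets belong to 4 genes, Mstn and Mef2a lower and Fst and Mef2c higher, and probe sets of one gene are not independent. The groups did not overlap for 3 of the 13, each lower, against 7.55% of all probe sets (3.23% lower and 4.33% higher), and for 3 of 13, each lower, without hyperthyroid 5, against 14.8% (6.51% lower and 8.28% higher). The median log2 difference was 0.11 over the 13 and 0.03 over all probe sets.

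**Figure D2:**
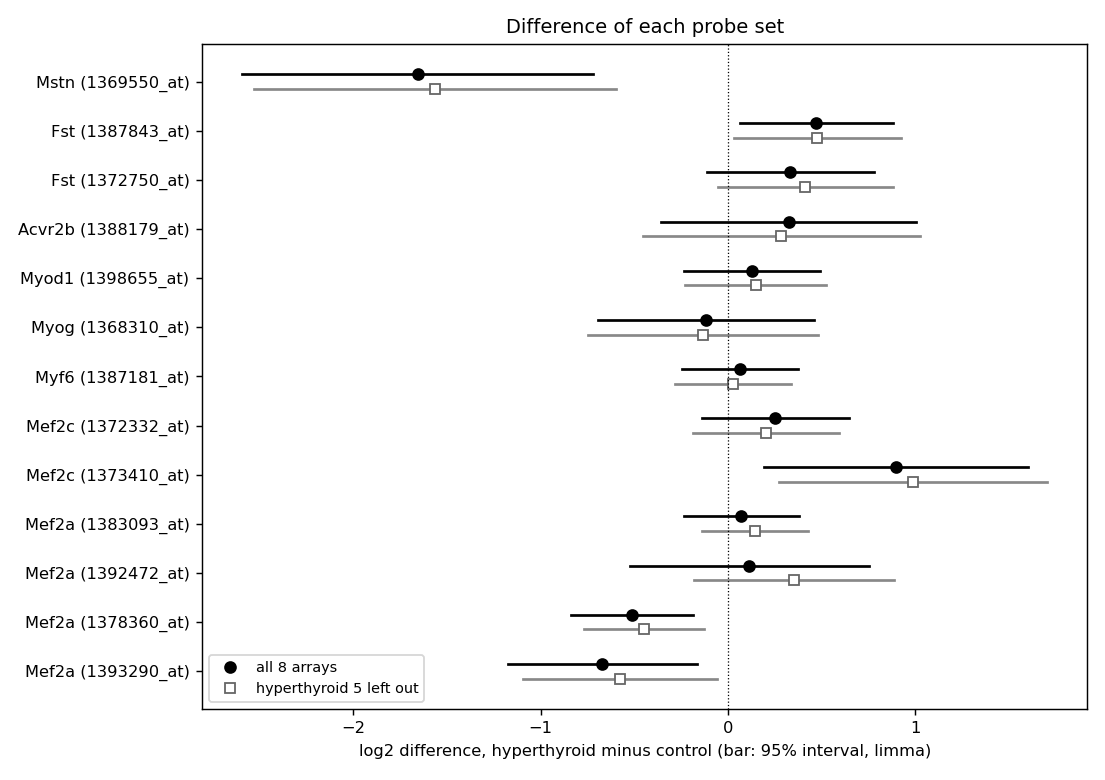
Log2 difference in signal, hyperthyroid minus control, of each probe set with its 95% interval from limma, on all 8 arrays (filled) and without hyperthyroid 5 (open). The Mstn point lies farthest from 0, at -1.66 and -1.56, and the intervals of 8 probe sets include 0 in both fits.

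Mstn, read by probe set 1369550_at, had signals of 46.4, 132, 278 and 92.3 on hyperthyroid 1, 2, 3 and 5, against 369, 283, 412 and 362 on control 7, 8, 9 and 11. All 4 hyperthyroid arrays lay below all 4 controls, but hyperthyroid 3 was close to control 8. The means were 137 ± 100.2 in hyperthyroid and 357 ± 53.6 in control muscles (SD, n = 4 each). The log2 difference was -1.66 ± 0.43 (SE), a signal 3.15-fold lower in hyperthyroid muscles, with a 95% interval of -2.59 to -0.72 (unadjusted p = 0.00242, adjusted p = 0.265 in limma). An exact permutation test of the log2 means gave p = 0.0286, the smallest that 4 against 4 allows, before any adjustment over probe sets. Of the 18625 probe sets, 112 had a larger decrease. Without hyperthyroid 5 the difference was -1.56 ± 0.44, 2.96-fold lower (adjusted p = 0.152).

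The spread of Mstn lay in the hyperthyroid group. Its highest array was 5.99-fold above its lowest, while controls spanned 1.45-fold, and the SD within groups on the log2 scale, 0.78, stood at percentile 82.8 of all probe sets tested. In bulk muscle RNA, fewer cells that make a transcript and less of it per cell cannot be told apart. The Gapdh ratio was above every control on hyperthyroid 1, 2 and 3. On hyperthyroid 5, the array with a Myh13 signal of 4.17, the ratio was 1.44, below every control, and Mstn was 92.3. The cause of the Mstn difference was not tested. With the log2 Gapdh ratio as a covariate the Mstn difference was -1.43 ± 0.50 on all 8 arrays (adjusted p = 0.242 in limma). Without hyperthyroid 5 the same covariate gave -0.13 ± 0.67 (adjusted p = 0.992), in a fit where every hyperthyroid ratio is above every control ratio. Without hyperthyroid 1 and 2, a choice made after the values were seen, the difference was -1.14 ± 0.38 (unadjusted p = 0.0135, adjusted p = 0.446 in limma). Leaving out hyperthyroid 3, the hyperthyroid array of highest Mstn, together with hyperthyroid 5 kept only hyperthyroid 1 and 2. Their Gapdh ratios, 3.91 and 4.40, were the highest of the 8 arrays. That fit gave -2.17 ± 0.35 and an adjusted p of 0.0292 in limma, the only fit of those run in which a member passed. It called 144 of the 18625 probe sets, against 29 with hyperthyroid 3 kept. Leaving out hyperthyroid 1 with hyperthyroid 5 gave -0.88 ± 0.28 (adjusted p = 0.279). The arrays of high Xist and low Eif2s3y signal, hyperthyroid 1 and control 11, had Mstn at 46.4 and 362, and the part of sex was not tested.

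**Figure D3:**
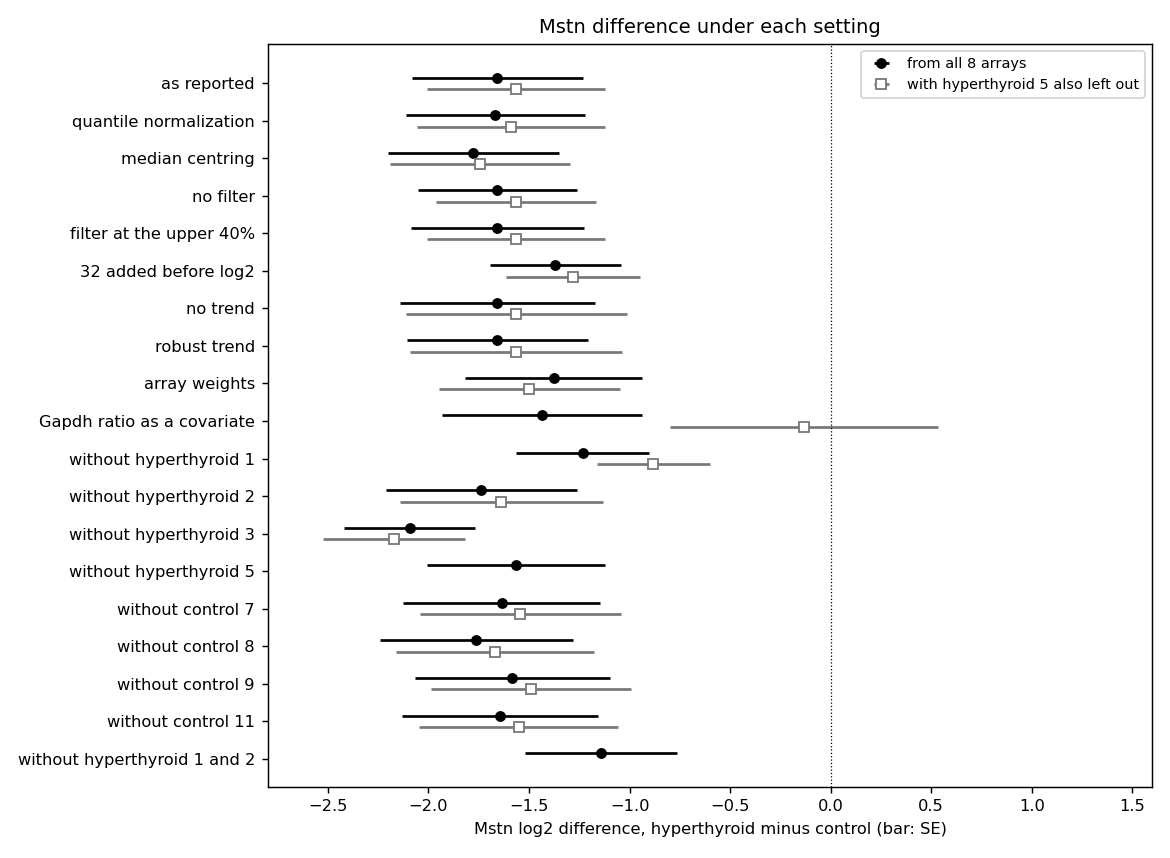
Mstn log2 difference, hyperthyroid minus control, with its SE under each setting, from all 8 arrays (filled) and with hyperthyroid 5 also left out (open). Every point lies below 0, and the one nearest to 0, at -0.13, has the Gapdh ratio as a covariate without hyperthyroid 5.

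Among genes tested, 1 probe set each, those whose centred log2 profile over the 8 arrays lay nearest to that of Mstn were Pinlyp, Smpd4, Zc2hc1a, Taf6l and Hdac11. Their root mean square differences from the Mstn profile were 0.40, 0.47, 0.50, 0.53 and 0.53 on the log2 scale, where the Mstn profile itself had a root mean square of 1.07. These 5 stand out of 10445 genes compared over only 8 arrays, and their ranks over the 7 arrays without hyperthyroid 5 were 6, 14, 23, 9 and 32. Being chosen for a profile like that of Mstn, they carry its group pattern, and Pinlyp, Smpd4, Taf6l and Hdac11 overlapped between the groups. Zc2hc1a ranged over 85.8 to 225 in hyperthyroid muscles, against 258 to 298 in controls, with no overlap (log2 difference -1.13 ± 0.27, adjusted p = 0.232 in limma).

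Fst, the secreted inhibitor of myostatin and activins, stood higher in hyperthyroid muscles on both probe sets without passing the test. Probe set 1387843_at had signals of 180, 271, 242 and 224 on hyperthyroid 1, 2, 3 and 5, against 147, 177, 183 and 151 on control 7, 8, 9 and 11. Hyperthyroid 2, 3 and 5 lay above every control and hyperthyroid 1 fell among them. The log2 difference was 0.47 ± 0.19 (SE), 1.39-fold higher (unadjusted p = 0.0271, adjusted p = 0.374 in limma), and 0.48 ± 0.20 without hyperthyroid 5 (adjusted p = 0.292). Probe set 1372750_at had 165, 211, 184 and 148 on hyperthyroid 1, 2, 3 and 5, against 141, 178, 130 and 117 on control 7, 8, 9 and 11. Here the groups overlapped, with hyperthyroid 2 and 3 above every control, and the difference was 0.33 ± 0.20 (adjusted p = 0.546), or 0.41 ± 0.21 without hyperthyroid 5. Hyperthyroid 2 had the highest signal on both probe sets.

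Acvr2b, the type II receptor that binds myostatin, was the dimmest of the probe sets, at percentile 68.0 of all probe sets by mean signal. Its signals were 83.5, 120, 159 and 130 on hyperthyroid 1, 2, 3 and 5, against 117, 53.8, 116 and 117 on control 7, 8, 9 and 11. Control 7, 9 and 11 agreed closely while control 8 was far below them. The log2 difference was 0.32 ± 0.31 with an interval of -0.36 to 1.01 (adjusted p = 0.700 in limma), and 0.04 ± 0.26 without control 8 (adjusted p = 0.968). Without hyperthyroid 5 it was 0.28 ± 0.34.

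Of the other genes of the myostatin and activin pathway, none passed the test. Of 23 listed, 19 had a probe set and 16 were tested, with 0 past the adjusted threshold of 0.05 in limma in either fit (0% of 10446 genes on all 8 arrays and 0.124% without hyperthyroid 5). At an unadjusted p under 0.05 in limma, 2 were higher and 1 lower on all 8 arrays, against 6.34% and 5.83% of all genes, and 2 higher and 1 lower without hyperthyroid 5, against 7.85% and 8.24%. Median centring left these counts on all 8 arrays and gave 1 higher and 2 lower without hyperthyroid 5. The share of all genes under median centring was not analysed here. The list's median log2 difference was 0.17, with 9 of 16 genes higher, and the median of all genes was 0.01, with 51.2% higher (51.9% without hyperthyroid 5). Furin, a protease that cuts the myostatin precursor, had signals of 210, 211, 225 and 189 on hyperthyroid 1, 2, 3 and 5, against 137, 143, 136 and 101 on control 7, 8, 9 and 11. Every hyperthyroid array was above every control, at a log2 difference of 0.70 ± 0.19 (adjusted p = 0.265 in limma), or 0.75 ± 0.20 without hyperthyroid 5 (adjusted p = 0.139). Smad3, which carries the signal to the nucleus, had 564, 575, 417 and 521 on hyperthyroid 1, 2, 3 and 5, against 340, 331, 357 and 407 on control 7, 8, 9 and 11. Its groups did not overlap either, at 0.53 ± 0.15 (adjusted p = 0.284), or 0.52 ± 0.16 without hyperthyroid 5 (adjusted p = 0.175). Ltbp3, which binds latent growth factors of this family, was at -0.57 ± 0.23 (adjusted p = 0.376) and overlapped. Without hyperthyroid 5 it was at -0.45 ± 0.22 (unadjusted p = 0.0633 in limma). The 1 gene counted lower in that fit was Dcn, at -0.38 ± 0.16 (unadjusted p = 0.036 in limma). On all 8 arrays Dcn was at -0.11 ± 0.25. Smad2 and Smad4 were at -0.06 ± 0.21 and 0.26 ± 0.18. The receptor Acvr2a was at 0.43 ± 0.26, and the related ligand Gdf11 at 0.32 ± 0.23.

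The 3 measured myogenic regulatory factors overlapped between the groups. Myod1, which commits cells to the muscle lineage, had signals of 579, 684, 481 and 545 on hyperthyroid 1, 2, 3 and 5, against 571, 538, 581 and 409 on control 7, 8, 9 and 11. Hyperthyroid 2 was the highest array and control 11 the lowest. The log2 difference was 0.13 ± 0.17, with a 95% interval of -0.24 to 0.49 (adjusted p = 0.785 in limma), and 0.15 ± 0.17 without hyperthyroid 5. Myod1 was at 0.16 on hyperthyroid 1 and at 0.07 on hyperthyroid 5 from the control mean on the log2 scale, so it was not low on the arrays of lowest Mstn.

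Myog, whose product drives terminal differentiation and whose E-boxes are shown above, had signals of 137, 171, 165 and 164 on hyperthyroid 1, 2, 3 and 5, against 204, 175, 101 and 245 on control 7, 8, 9 and 11. The controls spanned 2.44-fold, from control 9 to control 11, and enclosed all 4 hyperthyroid arrays, which spanned 1.25-fold. The log2 difference was -0.12 ± 0.26, with an interval of -0.69 to 0.46 (adjusted p = 0.879 in limma). Without hyperthyroid 5 it was -0.13 ± 0.28.

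Myf6, the factor most typical of adult rodent muscle fibres, had signals of 1321, 1385, 1530 and 1561 on hyperthyroid 1, 2, 3 and 5, against 1721, 1397, 1180 and 1290 on control 7, 8, 9 and 11. The hyperthyroid arrays lay inside the control range. The log2 difference was 0.06 ± 0.14, with an interval of -0.25 to 0.38 (adjusted p = 0.880 in limma), and 0.03 ± 0.14 without hyperthyroid 5. As ratios of hyperthyroid to control signal, these 95% intervals ran over 0.849 to 1.40 for Myod1, 0.618 to 1.37 for Myog and 0.843 to 1.30 for Myf6.

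Mef2c, a MEF2 factor of differentiating and slow muscle, was read by 2 probe sets that differed. The brighter, 1372332_at, had signals of 3368, 6092, 4063 and 5010 on hyperthyroid 1, 2, 3 and 5, against 4418, 3514, 3858 and 3470 on control 7, 8, 9 and 11. Hyperthyroid 2 and 5 lay above every control and hyperthyroid 1 below every control, and the difference was 0.25 ± 0.18 (adjusted p = 0.599 in limma), or 0.20 without hyperthyroid 5 (adjusted p = 0.620). The other, 1373410_at, had 2059, 3438, 2238 and 1963 on hyperthyroid 1, 2, 3 and 5, against 849, 780, 2222 and 1751 on control 7, 8, 9 and 11. Control 9 and 11 were near the hyperthyroid arrays and control 7 and 8 far below them. The difference there was 0.90 ± 0.32, 1.86-fold higher (unadjusted p = 0.0171, adjusted p = 0.339), and 0.99 ± 0.33 without hyperthyroid 5 (adjusted p = 0.196). With the mean of both probe sets Mef2c was at 0.57 ± 0.21 (adjusted p = 0.356).

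Mef2a, which is expressed in mature muscle, was read by 4 probe sets that fell into pairs. The brightest, 1383093_at, had signals of 1989, 2533, 2170 and 1819 on hyperthyroid 1, 2, 3 and 5, against 2298, 1955, 2049 and 1771 on control 7, 8, 9 and 11, and the groups overlapped (log2 difference 0.07 ± 0.14, adjusted p = 0.862 in limma, and 0.14 without hyperthyroid 5, adjusted p = 0.628). Probe set 1392472_at also overlapped, from 307 to 756 on hyperthyroid and from 361 to 751 on control arrays (0.11 ± 0.29, adjusted p = 0.900, and 0.35 ± 0.24 without hyperthyroid 5, adjusted p = 0.520). Probe set 1378360_at had 352, 408, 421 and 330 on hyperthyroid 1, 2, 3 and 5, against 590, 477, 583 and 503 on control 7, 8, 9 and 11. All hyperthyroid arrays were below all controls, at -0.51 ± 0.15, 1.42-fold lower (unadjusted p = 0.00526, adjusted p = 0.284), and -0.45 ± 0.15 without hyperthyroid 5 (adjusted p = 0.193). Its SD within groups, 0.16 on the log2 scale, was at percentile 6.42 of all probe sets tested. Probe set 1393290_at had 87.2, 165, 130 and 95.3 on hyperthyroid 1, 2, 3 and 5, against 178, 173, 206 and 180 on control 7, 8, 9 and 11. It did not overlap either, at -0.67 ± 0.23 (unadjusted p = 0.0135, adjusted p = 0.332), and hyperthyroid 1 and 5, the arrays lowest in Mstn, were also lowest here. Without hyperthyroid 5 it was -0.58 ± 0.24 (adjusted p = 0.275). With the mean over the 4 probe sets Mef2a was at -0.25 ± 0.18 (adjusted p = 0.590), opposite in sign to the brightest probe set. Which part of the Mef2a transcripts each probe set reads was not analysed here.

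**Figure D4:**
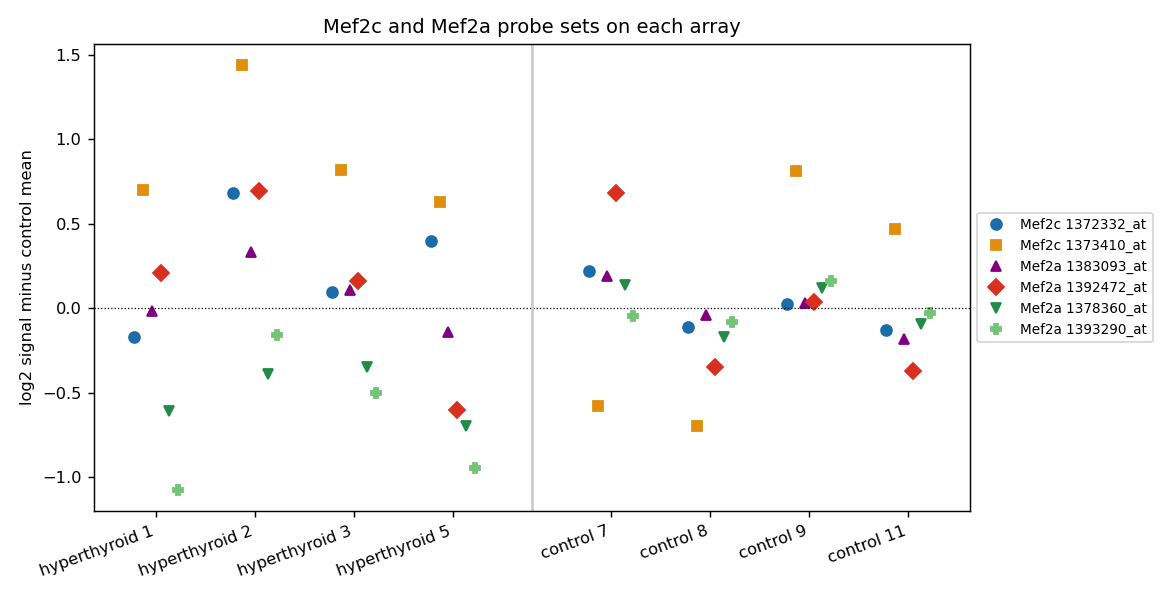
Log2 signal minus the control mean for the 2 Mef2c and 4 Mef2a probe sets on each array, hyperthyroid arrays on the left. Mef2a 1378360_at and 1393290_at (green) lie below 0 on all 4 hyperthyroid arrays while Mef2a 1383093_at (purple triangles) lies on both sides, and Mef2c 1373410_at (orange) separates control 7 and 8 from control 9 and 11.

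Satellite cells could be followed only through other genes, because Pax7 and Myf5 had no probe set. Of 28 satellite cell and Notch genes listed, 25 had a probe set and 21 were tested, and 0 passed in either fit. At an unadjusted p under 0.05 in limma 0 were higher and 1 lower on all 8 arrays, against 6.34% and 5.83% of all genes. Without hyperthyroid 5, 1 was higher and 1 lower, against 7.85% and 8.24%. The median log2 difference was 0.06, with 11 of 21 genes higher, and 0.04, with 12 of 21 higher, without hyperthyroid 5. With median centring the counts at that level were 0 higher and 3 lower on all 8 arrays, and 0 higher and 5 lower without hyperthyroid 5. That setting also lowered the median of all probe sets tested, to -0.09 and, without hyperthyroid 5, to -0.14. The share of all genes at that level under median centring was not analysed here, so these counts have no background beside them. With median centring and without hyperthyroid 5 Des, the muscle intermediate filament desmin, passed (-0.75 ± 0.16, adjusted p = 0.045 in limma). As reported Des was at -0.37 ± 0.21, and at -0.57 ± 0.16 without hyperthyroid 5 (adjusted p = 0.149). Cdh15, the M-cadherin of satellite cells, had means of 201 ± 28.4 in hyperthyroid and 186 ± 23.2 in control muscles (SD, n = 4 each) and a difference of 0.11 ± 0.18. The integrin Itga7 was at -0.14 ± 0.23, Vcam1 at 0.32 ± 0.23 and the calcitonin receptor Calcr, a mark of quiescent satellite cells in mice, at -0.08 ± 0.53. Sdc4, a syndecan of satellite cells and other cells, was at -0.42 ± 0.19 (adjusted p = 0.419). Its p was the smallest on all 8 arrays among the brightest probe sets of the list, while Des had the smallest without hyperthyroid 5. Cav1, which endothelium also expresses, was at 0.25 ± 0.11 by the probe set used, while its dimmer probe sets gave -0.15 ± 0.13 and -0.72 ± 0.25. The last had an unadjusted p of 0.0156 in limma (adjusted p = 0.334), and -0.94 ± 0.21 without hyperthyroid 5 (adjusted p = 0.0929). The Notch ligand Dll4 was at 0.60 ± 0.28 on its brighter probe set (adjusted p = 0.438) and at 0.02 ± 0.57 on the other. Ncam1 was at -1.44 ± 0.71 on all 8 arrays and at -0.54 ± 0.26 without hyperthyroid 5.

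The partners, inhibitors and cofactors of the myogenic and MEF2 factors made up a list of 43, of which 39 had a probe set and 32 were tested. None passed in either fit at the adjusted threshold (0 of 32 in limma), and 3 were higher and 0 lower at an unadjusted p under 0.05, or 3 higher and 2 lower without hyperthyroid 5. The shares of all genes at that level were 6.34% higher and 5.83% lower, and 7.85% and 8.24% without hyperthyroid 5. The median log2 difference was 0.06, with 18 of 32 genes higher, and 0.15, with 23 of 32 higher, without hyperthyroid 5. With median centring the counts at that level were 1 higher and 2 lower, and 1 higher and 4 lower without hyperthyroid 5. That setting also lowered the median of all probe sets tested, to -0.09 and, without hyperthyroid 5, to -0.14. The share of all genes at that level under median centring was not analysed here. Twist1, which blocks myogenic factors by competing for E proteins, had signals of 75.1, 108, 69.3 and 96.9 on hyperthyroid 1, 2, 3 and 5, against 47.8, 36.1, 47.9 and 47.8 on control 7, 8, 9 and 11. All hyperthyroid arrays were above all controls, at 0.95 ± 0.29 (adjusted p = 0.306). The E protein Tcf4 was at 0.45 ± 0.16 (adjusted p = 0.338) and at 0.60 ± 0.11 without hyperthyroid 5 (adjusted p = 0.0656), and a dimmer probe set was at -0.17 ± 0.25. Without hyperthyroid 5 Tcf4 passed in 4 of the alternatives, with quantile normalization (0.71 ± 0.10, adjusted p = 0.0234 in limma), the stricter filter (adjusted p = 0.0432), 32 added (adjusted p = 0.0488) or hyperthyroid 3 left out (adjusted p = 0.0361). Klf5, a zinc finger factor that acts with Myod1 in mouse myoblasts, was at 0.49 ± 0.18 (adjusted p = 0.353), with no overlap. Its dimmer probe sets gave 0.73 ± 0.35 and 0.28 ± 0.35. The E protein Tcf12 was at -0.09 ± 0.16, the inhibitors Id1, Id2 and Id3 at -0.11 ± 0.21, -0.16 ± 0.19 and -0.42 ± 0.20, Mef2d at 0.29 ± 0.27 and the MEF2 repressor Hdac5 at 0.18 ± 0.20. Vgll2, a muscle cofactor of TEAD proteins, was at -0.56 ± 0.37 and at -0.99 ± 0.22 without hyperthyroid 5 (adjusted p = 0.0929), where it passed with median centring (-1.17 ± 0.23, adjusted p = 0.0322 in limma).

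Genes of myoblast fusion and late differentiation gave no call. Of 26 listed, 22 had a probe set and 16 were tested, with 0 past the adjusted threshold in either fit. At an unadjusted p under 0.05 in limma 1 was higher and 0 lower in each fit. Among all genes 6.34% were higher and 5.83% lower at that level, and 7.85% and 8.24% without hyperthyroid 5. With median centring the counts for this list were 1 higher and 2 lower, and 1 higher and 5 lower without hyperthyroid 5. That setting also lowered the median of all probe sets tested, to -0.09 and, without hyperthyroid 5, to -0.14. The share of all genes at that level under median centring was not analysed here. At any p 2 of 16 were higher, where 51.2% of all genes were, with a median of -0.21. Without hyperthyroid 5, 7 of 16 were higher, where 51.9% of all genes were, and the median was -0.08. Tmem182, a muscle membrane protein that restrains fusion in mice, had signals of 951, 837, 861 and 669 on hyperthyroid 1, 2, 3 and 5, against 647, 656, 505 and 606 on control 7, 8, 9 and 11. Every hyperthyroid array was above every control, at 0.45 ± 0.15 (adjusted p = 0.331), or 0.55 ± 0.14 without hyperthyroid 5 (adjusted p = 0.110). Mybph, a myosin binding protein, was at -0.54 ± 0.29 and the cell surface receptor Boc at -0.25 ± 0.14. Mymk, whose product drives the fusion of myoblasts, was dim, with 13.1 to 61.3 on hyperthyroid and 34.2 to 77.4 on control arrays.

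Proliferation genes were measured as a sign of dividing cells of any type. Of 24 listed, 23 had a probe set and 15 were tested, with 0 past the adjusted threshold in either fit, 1 higher and 0 lower at an unadjusted p under 0.05 in limma in each. The shares of all genes at that level were 6.34% higher and 5.83% lower, and 7.85% and 8.24% without hyperthyroid 5. The median was 0.08, with 9 of 15 genes higher, and 0.20, with 10 of 15 higher, without hyperthyroid 5. Mcm5, part of the replication helicase, had signals of 76.4, 118, 62.2 and 47.3 on hyperthyroid 1, 2, 3 and 5, against 54.8, 16.2, 43.9 and 12.0 on control 7, 8, 9 and 11. The groups overlapped and control 8 and 11 were below the filter level of 28.2, so the difference of 1.46 ± 0.56 (adjusted p = 0.362) is imprecise. Mcm5 is the 1 gene counted higher in each fit. By the mean log2 signal of the controls alone it would not have passed the filter. Its selection thus rested on the hyperthyroid arrays, which favours that direction. The cell cycle kinase Cdk4 was at -0.38 ± 0.21, and its partner Ccnd2 at 0.26 ± 0.17, with hyperthyroid 1, 3 and 5 above every control.

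**Figure D5:**
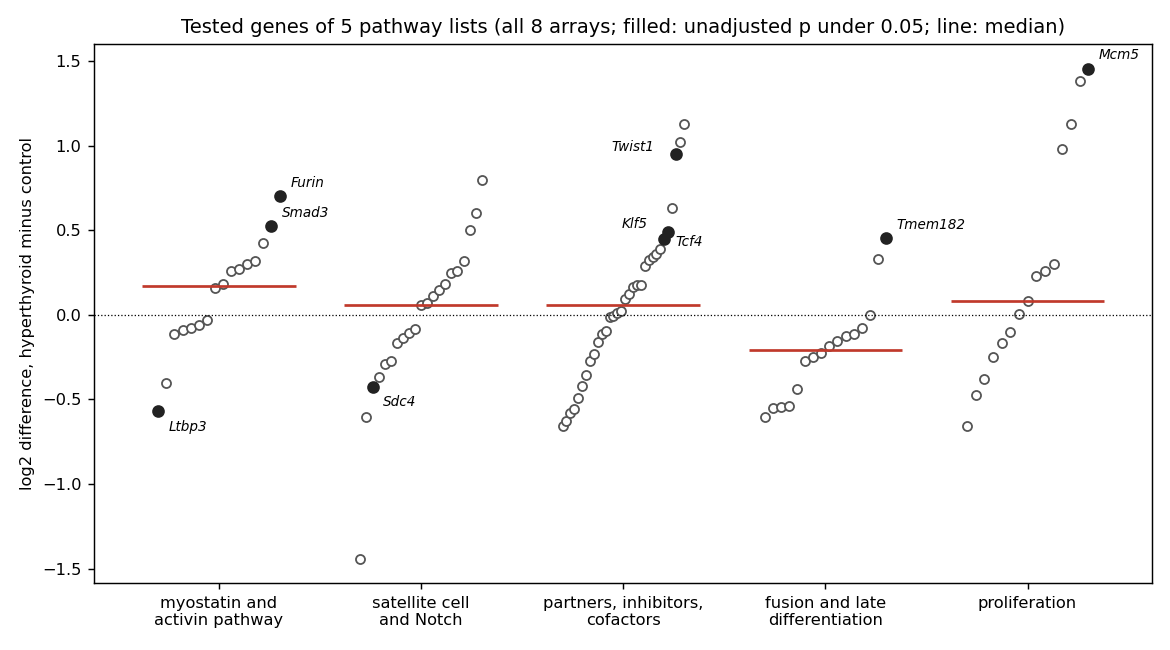
Log2 difference, hyperthyroid minus control, of each tested gene of 5 lists on all 8 arrays, 1 probe set per gene. Filled symbols have an unadjusted p under 0.05 in limma and are named, red lines are list medians, which run from -0.21 for fusion to 0.17 for the myostatin pathway.

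Markers of other cells in the samples also differed between arrays, and their part in these results was not tested. No marker passed on all 8 arrays or without hyperthyroid 5 (adjusted p over 0.05 in limma). Among all genes 51.2% were higher at any p, and 5.83% lower at an unadjusted p under 0.05 in limma. Of 8 Schwann cell, oligodendrocyte and nerve markers 0 were higher, with a median of -1.66 and 2 lower at an unadjusted p under 0.05. Their summed signal ran from 3128 to 24881 in hyperthyroid and from 13884 to 27863 in control muscles, with Mobp at 1.37 on hyperthyroid 5. Without hyperthyroid 5, 1 of 8 was higher (Prx, at 0.13 ± 0.20), the median was -0.89 and 0 were lower at that level. In that fit 51.9% of all genes were higher and 8.24% lower at that level. With median centring on all 8 arrays 7 of the 8 markers were lower at that level. That setting also lowered the median of all probe sets tested, from 0.03 to -0.09. The share of all genes lower under it was not analysed here.

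Of 7 endothelial markers 7 were higher on all 8 arrays and 7 without hyperthyroid 5, with medians of 0.24 and 0.23, and 1 and 2 of them at an unadjusted p under 0.05. Among all genes 51.2% and 51.9% were higher at any p in these fits, and 6.34% and 7.85% were higher at that level. The endothelial sums were 2331 to 2985 in hyperthyroid and 2080 to 2685 in control muscles, and Kdr was at 0.59 ± 0.17 (adjusted p = 0.284 in limma). Kdr was at 0.73 ± 0.14 without hyperthyroid 5 (adjusted p = 0.0703), where it passed with no filter (adjusted p = 0.0490) and with the stricter filter (adjusted p = 0.0465).

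Fibroblast markers were higher in 4 of 10 in both fits, with medians of -0.13 and, without hyperthyroid 5, -0.22. At an unadjusted p under 0.05 in limma 2 were higher and 1 lower, against 6.34% and 5.83% of all genes. Without hyperthyroid 5, 1 was higher and 4 lower, against 7.85% and 8.24%. The fibroblast sums were 9888 to 33884 in hyperthyroid and 13621 to 31030 in control muscles, and Lum was at -0.92 ± 0.29 (adjusted p = 0.317). Cd248 and Dpt went the other way, at 0.93 ± 0.34 (adjusted p = 0.344 in limma) and 0.58 ± 0.26 (adjusted p = 0.419). Adipocyte markers were higher in 2 of 5, with a median of -0.10 and sums of 891 to 7237 in hyperthyroid and 1996 to 2816 in control muscles. Without hyperthyroid 5, 0 of 5 were higher, the median was -0.76 and 1 was lower at an unadjusted p under 0.05. That 1 was Cidec, at -1.62 ± 1.22 on all 8 arrays and -2.61 ± 1.06 without hyperthyroid 5 (adjusted p = 0.273). Leukocyte markers were higher in 4 of 6 with a median of 0.18, but in 1 of 6 with a median of -0.27 without hyperthyroid 5. Their sums were 1263 to 4492 in hyperthyroid and 1445 to 2416 in control muscles, and Ptprc was at 0.60 ± 0.41. In the fibroblast, adipocyte and leukocyte lists hyperthyroid 5 had the highest sum of the 8 arrays. Without it the highest hyperthyroid sums were 16432, 4022 and 1926.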

How the data were processed

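The authors deposited linear intensities, 1 per probe set and array, scaled by the authors with GCOS, the array maker's software, per the submitters' processing notes, which give no version. Each array had the same trimmed mean (150.0). Detection calls are not given in the sources used here. Control probe sets (57) were left out. Signals below 1 were set to 1 before log2, nothing more was normalized, and probe sets in the upper 60% by mean signal (above about 28.2) were tested, two-sided, in limma 3.58.1 under R 4.3.3 by lmFit and a trended eBayes. Fold changes of dim probe sets are imprecise on this scale, and 4 arrays a group limit the precision. A list gene was represented by its brightest probe set.

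The genes, 10 lists, tests and the second fit without hyperthyroid 5 were chosen with earlier results of these data known. The text names all probe sets of the 10 genes, the 3 smallest p of each pathway list and the smallest of each list of markers. It also names the 5 profiles nearest to Mstn and the tissue checks. Other list genes were named after their values were seen, for their known roles, because a count turned on them or because they went the other way from a named marker. Alternatives were 2 normalizations, 2 filters, an offset of 32, no or a robust trend, array weights, the Gapdh ratio as a covariate, a threshold of 0.10 and leaving out each array. The fits were also run on simulated data with known differences added to independent noise. That is a check of the code, as such data hold no array-wide differences in RNA quality or tissue.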

Additional observations from a re-analysis of the deposited data

Results flagged for a closer look

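In groups of 4 arrays, 1 value was picked out where its gap to the nearest other array took most of the group's range (signals on the log2 scale), a rule that chance meets in about 1 of 20 groups, and 48 groups were examined. Acvr2b had a signal of 53.8 on control 8, against 116 to 117 on the other 3 controls. Myh13 had a signal of 4.17 on hyperthyroid 5, against 6225 to 9340 on the other 3 hyperthyroid arrays. The Actb ratio of the 3 prime to the 5 prime control probe set was 2.97 on control 11, against 3.61 to 3.72 on the other 3 controls.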

How the results depend on the processing

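No paired analysis was possible because the groups share no replicate number. On all 8 arrays 0 member probe sets passed the adjusted threshold of 0.05 in limma under each alternative, and 5 had an unadjusted p under 0.05. The number lower at an unadjusted p under 0.05 was 3 with each array left out in turn. The number higher, 2 as reported, was 0 when the Gapdh ratio was a covariate, 1 with median centring, 1 with hyperthyroid 1 and 2 both left out (chosen after seeing the data) and 0 to 3 with each array left out in turn. Without hyperthyroid 5 the number higher, also 2, was 1 with quantile normalization, 1 with median centring, 1 with no trend, 1 with a robust trend, 1 with array weights, 0 with the Gapdh ratio, and 0 to 3 with a further array left out. The number lower, 3, was 0 with the Gapdh ratio and 2 to 3 with a further array left out, and the number past the adjusted threshold was 0 to 1. The 1 is Mstn without hyperthyroid 3, in a fit of hyperthyroid 1 and 2 against controls that called 144 probe sets. The cause of these shifts was not tested. Of 442 member differences under an alternative, 27 changed sign, 0 of them among differences reported with an unadjusted p under 0.05. Median centring over all probe sets moved the median difference of those tested from 0.03 to -0.09 on all 8 arrays and from 0.04 to -0.14 without hyperthyroid 5. Apart from leaving out hyperthyroid 5, the shares of all features at an unadjusted p under 0.05 were not analysed here under the alternatives. Over all probe sets limma called 0 on all 8 arrays (2151 at an unadjusted p under 0.05), but 6 with array weights, 8 with the Gapdh ratio, 3 with hyperthyroid 1 and 2 both left out and 29 without hyperthyroid 5. Against those 29, limma without hyperthyroid 5 called 315 with median centring, 85 with the stricter filter, 78 with 32 added, 71 with no filter, 1 with the Gapdh ratio, 0 with no trend and 0 to 144 with a further array left out. Genes of the pathway and marker lists gave 0 calls as reported. On all 8 arrays Cd248 passed with the Gapdh ratio (adjusted p = 0.0389) and Pck1 with hyperthyroid 1 and 2 both left out (adjusted p = 0.00881). Without hyperthyroid 5, Tcf4 passed in 4 alternatives, Kdr with no filter and with the stricter filter, Des and Vgll2 with median centring, and Cidec without hyperthyroid 3 (adjusted p = 0.0133). Signals near the filter level limit what Mcm5 and Mymk can show.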
